A study of Mus musculus with 6 samples.

Results

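Lipolysis in white adipocytes is set by receptors that raise or lower cyclic AMP. Beta-adrenergic receptors and melanocortin receptors couple to the stimulatory G protein Gs, which activates adenylyl cyclase, and cyclic AMP then activates protein kinase A and triglyceride breakdown. Alpha-2 adrenergic, hydroxycarboxylic acid and EP3 prostaglandin receptors couple to the inhibitory G protein Gi and oppose that signal. The genes described here were 8 receptors of these families and 1 accessory protein in epididymal white adipose tissue (eWAT): the adrenergic receptors Adrb3, Adrb1 and Adra2a, the melanocortin receptors Mc2r and Mc5r, the melanocortin receptor accessory protein Mrap, and the antilipolytic receptors Hcar1, Hcar2 and Ptger3. They were taken by gene name from the 55039 genes listed in the deposited tables. All 9 were found, and all 9 were among the 17296 genes that passed the filter on low counts.

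The study asked what cancer-associated cachexia (CAC) does to fat, and sequenced mRNA of eWAT from 6 male C57BL/6 mice that were 6 to 7 weeks old when assigned to a group. The 3 CAC mice had been injected under the skin with Lewis lung carcinoma (LLC) cells, a mouse lung tumour line. The 3 control mice (CONT) had been injected with PBS, and tissue was taken 28 days after injection. Each library was 1 mouse, and its value is an average over all cells of the depot, so fewer adipocytes and less receptor RNA per adipocyte cannot be told apart.

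The libraries held 15713794 to 25926425 reads assigned to genes. CONT 1 stood apart. Mitochondrial genes took 30.2% of its reads against 3.89 to 5.04% in the other libraries, and over 5779 well expressed genes its log2 ratio to the other CONT libraries had an SD of 0.832 and 0.872, against 0.297 between CONT 2 and CONT 3. CAC 1 also differed from CAC 2 and CAC 3, with an SD of 0.537 and 0.676 against 0.424 between those 2. CONT 3 held epididymis transcripts, with a summed marker level of 9222 CPM (read counts scaled to a common library size, after TMM adjustment) against 0 to 147 in the other libraries. None of the 8 adipocyte markers was at 0 in a library, and their summed level was 20328 to 51774 CPM in CONT and 31443 to 42262 CPM in CAC. Neutrophil markers summed to 2.32 to 53.4 CPM in CONT and 137 to 1195 CPM in CAC, with the highest value in CAC 3, and 5 of the 6 were higher in every CAC library. Of the 6 fibroblast and progenitor markers, 3 were lower and 1 was higher in every CAC library. The part of these cells in the receptor values was not tested.

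The members were selected on their measured levels in this same comparison of CAC with CONT, so their group differences are given as a description, with a standard error (SE) and no p-value. Only 1 of the 9, Mc5r, had groups that did not overlap in CPM. Over all genes tested the groups did not overlap for 22.5%, and for 11.8% in the direction of Mc5r. CONT 1 held the lowest CONT value for 7 of the 9 members and the highest for the other 2, Adrb3 and Mrap. CAC 1 held the highest CAC value for 5 members. CONT 3, the library with epididymis transcripts, held the highest CONT value for Adra2a, Mc2r, Mc5r, Hcar1 and Hcar2. The part of epididymis RNA in these values was not tested.

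**Figure D1:**
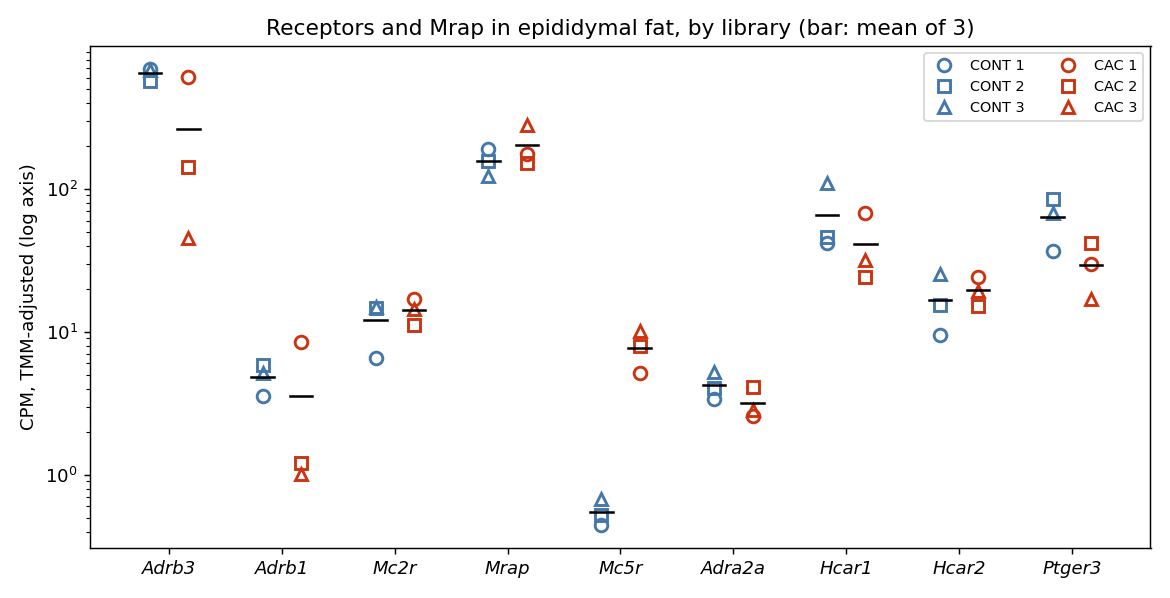
Level of each member in each library, in TMM-adjusted CPM on a log axis, with CONT in blue, CAC in red and a bar at the mean of 3 libraries. Adrb3 and Adrb1 spread widely within CAC, with CAC 1 near the CONT values, and Mc5r is the member whose groups are apart.

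Adrb3, the main beta-adrenergic receptor of rodent white adipocytes, had the highest level among the members per transcript length in CONT. The gene (ENSMUSG00000031489) lies on the minus strand at chr8:27225776-27250616 of GRCm38. Its level was 692, 564 and 680 CPM in CONT 1 to 3 and 602, 142 and 45.1 CPM in CAC 1 to 3. CAC 1 was within the CONT range, while CAC 2 and CAC 3 were below every CONT library. The means were 645 ± 70.8 CPM in CONT and 263 ± 297 CPM in CAC (SD, n = 3), and the log2 fold change was -1.29 (SE 0.85). The highest library was 13.3 times the lowest in CAC and 1.23 times in CONT. Without CAC 1 the log2 fold change was -2.74, and without CAC 3 it was -0.79. FPKM is fragments per kilobase of gene, scaled by a size for each library. By mean FPKM, Adrb3 ranked 226 of all listed genes in CONT (154 ± 17.9) and 576 in CAC (64.0 ± 72.7).

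The antisense gene Gm45470 overlaps Adrb3, at chr8:27228686-27240332 on the plus strand. It drew 5189 reads over the 6 libraries, against 55040 for Adrb3. The strand setting of the counting is not given in the sources used here, so reads of the pair may not be fully separated. Reads of Adrb3 per read of Gm45470 were 144, 8.78 and 11.3 in CONT 1 to 3 and 8.02, 8.55 and 12.3 in CAC 1 to 3. CONT 1 therefore stood apart in this ratio as well, and the other 5 libraries were close together in both groups.

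Adrb1 (ENSMUSG00000035283, chr19:56722372-56724862, plus strand) encodes the beta-1 receptor, a Gs-coupled receptor for noradrenaline and adrenaline. It is known best from the heart and is also made by adipocytes. Its level was 3.57, 5.83 and 5.15 CPM in CONT and 8.50, 1.21 and 1.02 CPM in CAC. CAC 1 was above every CONT library, and CAC 2 and CAC 3 were below every CONT library. The log2 fold change of -0.44 (SE 0.86) therefore matched no single CAC library. It was -2.06 without CAC 1 and 0.01 without CAC 3. Adrb1 and Adrb3 had the same order of CAC libraries, and their log2 CPM correlated with r = 0.90 over the 6 libraries, a description in which CONT 1 and CAC 1 stand apart.

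Adrb1 and Adrb3 are paralogs, so shared sequence could move reads between them. The longest run of identical coding bases in the GENCODE M21 annotation of GRCm38 was 30 bases. It is shown, in capitals with 15 bases on each side, because it is the place where a short read could belong to either gene.
Adrb1, chr19:56723329-56723388, plus strand: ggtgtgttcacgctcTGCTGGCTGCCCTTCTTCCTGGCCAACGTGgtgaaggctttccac
Adrb3, chr8:27227475-27227534, minus strand: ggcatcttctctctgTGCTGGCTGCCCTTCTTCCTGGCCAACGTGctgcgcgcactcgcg
The run starts at coding base 973 of Adrb1 and 901 of Adrb3, in the sixth transmembrane helix, which is among the conserved parts of these receptors. Of the 25-base windows of the coding sequence, 0.437% of those of Adrb1 also occurred in Adrb3, and no 50-base window did.

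Adrb3 exceeded Adrb1 by 143, 71.4 and 97.3 times in FPKM in CONT and by 52.2, 86.7 and 32.7 times in CAC. The groups overlapped in this ratio, because CAC 2 was above CONT 2, and Adrb3 was the more abundant of the pair in all 6 libraries.

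Adra2a (ENSMUSG00000033717, chr19:54045182-54048982, plus strand) encodes the alpha-2A receptor, through which catecholamines lower cyclic AMP. Its level was 3.39, 4.07 and 5.20 CPM in CONT and 2.59, 4.12 and 2.83 CPM in CAC. The groups overlapped, since CAC 2 was above CONT 1 and CONT 2. The log2 fold change was -0.41 (SE 0.39) and lay between -0.63 and -0.22 with any 1 library left out. Adrb3 exceeded Adra2a by 230, 156 and 147 times in FPKM in CONT and by 262, 38.9 and 17.9 times in CAC. The ratio of these opposed receptors was lowest in CAC 2 and CAC 3 and highest in CAC 1.

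RefSeq promoter windows on GRCm38.p6 were matched for Adrb1, Adra2a, Hcar1 and Ptger3, 4 of the 9 members. The 250 bases before each start were searched on both strands for the cyclic AMP response element half-site TGACG, the nuclear receptor half-site AGGTCA, the C/EBP motif TTGCNNAA and the TATA box TATAAA. These motifs occurred in 17.8%, 14%, 9.56% and 12.4% of 32851 promoters. Adrb1 and Adra2a each held TGACG, 90 and 69 bases before the start, and Adra2a also held TATAAA at 29 bases. These are RefSeq starts, which differ from the gene starts given above. The Adra2a window ends at 54045258, past the listed gene start of 54045182. The Adrb1 window ends at 56722116, before the listed gene start of 56722372. The windows of Hcar1 and Ptger3 held none of the 4 strings. The Adrb1 window, with a GC content of 74%, is shown as the example with the half-site in capitals, because Adrb1 had the highest r with Adrb3 among the members.
Adrb1, chr19:56721867-56722116, plus strand: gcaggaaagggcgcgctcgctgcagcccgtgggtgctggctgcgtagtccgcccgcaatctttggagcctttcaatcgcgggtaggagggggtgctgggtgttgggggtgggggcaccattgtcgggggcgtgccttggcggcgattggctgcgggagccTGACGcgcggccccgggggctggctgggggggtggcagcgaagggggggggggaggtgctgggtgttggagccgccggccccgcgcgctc
A match of letters is a description of the window and shows no binding.

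Among the melanocortin members, Mc5r differed most between the groups. Mc5r (ENSMUSG00000007480, chr18:68337603-68339711, plus strand) encodes a Gs-coupled receptor for alpha-MSH and ACTH, known from exocrine glands and from adipocytes. It had 5, 12 and 15 reads in CONT and 126, 196 and 268 reads in CAC. These are 0.446, 0.526 and 0.678 CPM in CONT and 5.17, 7.91 and 10.1 CPM in CAC. All CAC libraries were above all CONT libraries, CAC 1 being the lowest of the 3. The means were 0.550 ± 0.118 and 7.73 ± 2.48 CPM (SD, n = 3), with a log2 fold change of 3.79 (SE 0.46), or 13.8-fold. It lay between 3.56 and 4.06 with any 1 library left out. On the log2(FPKM + 1) scale, which understates the change of low genes, it was 2.19. By mean FPKM the gene ranked 17237 in CONT and 6336 in CAC.

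Mc2r (ENSMUSG00000045569, chr18:68406907-68429251, minus strand) encodes the ACTH receptor, known from the adrenal cortex and used by rodent adipocytes for ACTH-driven lipolysis. Its level was 6.60, 14.8 and 14.96 CPM in CONT and 16.9, 11.1 and 14.3 CPM in CAC. CONT 1 was the only library under 10 CPM, and the rest of the CONT values lay within the CAC range. The log2 fold change was 0.22 (SE 0.38). It was -0.06 without CONT 1 and 0.42 without CONT 3. Mc2r exceeded Mc5r by 11.01, 20.9 and 16.4 times in FPKM in CONT and by 2.43, 1.05 and 1.05 times in CAC. In CAC 2 and CAC 3 the RNA levels of these neighbours on chromosome 18 were thus nearly equal per length.

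Mrap (ENSMUSG00000039956, chr16:90738207-90749785, plus strand) encodes the small membrane protein that the ACTH receptor needs to reach the cell surface. Its level was 190, 157 and 122 CPM in CONT and 177, 151 and 281 CPM in CAC. CAC 3 was above every CONT library, while CAC 1 and CAC 2 lay within the CONT range. The log2 fold change was 0.37 (SE 0.31), and without CAC 3 it was 0.08. Mrap was far more abundant than its receptor, at 28.4, 10.5 and 8.07 times the FPKM of Mc2r in CONT and 10.3, 13.4 and 19.3 times in CAC. By mean FPKM it ranked 467 in CONT and 317 in CAC.

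Of the 7 other genes listed for the melanocortin system, 1 was not found under its symbol (Asip) and 1 passed the filter. That gene was Pomc, the precursor of ACTH and alpha-MSH, at 1.401 to 2.94 CPM in CONT and 0.444 to 1.36 CPM in CAC, with a log2 fold change of -1.27 (SE 0.58) and an edgeR adjusted p of 0.404. Mc3r had 0 reads in all libraries, Mc1r had 1 read in CAC 3, and Mc4r had 24 reads in CAC 2 and 1 read in CAC 3. Mrap2, the second accessory protein, had 0 to 5 reads per library. Mc2r and Mc5r were therefore the melanocortin receptors with measurable RNA in every library. Markers of steroidogenic cells, which use Mc2r and Mrap too, summed to 6.51 to 14.7 CPM in CONT and 4.15 to 8.23 CPM in CAC.

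Among Hcar1, Hcar2 and Ptger3, the last had the lowest log2 fold change. Ptger3 (ENSMUSG00000040016, chr3:157566892-157645888, plus strand) encodes EP3, the Gi-coupled prostaglandin E2 receptor that restrains lipolysis in fat. Its level was 36.5, 85.1 and 68.0 CPM in CONT and 29.6, 41.6 and 16.9 CPM in CAC. The groups overlapped only because CAC 2 was above CONT 1. The means were 63.2 ± 24.7 and 29.3 ± 12.4 CPM (SD, n = 3), with a log2 fold change of -1.11 (SE 0.43). It was -1.37 without CONT 1 and lay between -1.43 and -0.82 with any 1 library left out.

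Hcar1 (ENSMUSG00000049241, chr5:123876736-123880020, minus strand) encodes GPR81, the lactate receptor. Its level was 41.8, 46.2 and 110 CPM in CONT and 67.6, 24.1 and 32.0 CPM in CAC. CONT 3 was the highest library, and CAC 1 was above CONT 1 and CONT 2. The log2 fold change was -0.68 (SE 0.52). It was -0.08 without CONT 3 and -1.18 without CAC 1, so a single library of either group set its size.

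Hcar2 (ENSMUSG00000045502, chr5:123863570-123865499, minus strand) encodes GPR109A, the receptor for the ketone body beta-hydroxybutyrate and for niacin. Its level was 9.54, 15.5 and 25.3 CPM in CONT and 24.1, 15.1 and 19.2 CPM in CAC. Every CAC value lay within the CONT range. The log2 fold change was 0.21 (SE 0.39). It was -0.06 without CONT 1 and 0.65 without CONT 3, the library with epididymis transcripts. The ratio of Hcar1 to Hcar2 in FPKM was 2.58, 1.76 and 2.55 in CONT and 1.65, 0.939 and 0.981 in CAC. The groups did not overlap in this ratio, but only narrowly, with 1.65 in CAC 1 against 1.76 in CONT 2. It is among several ratios looked at, and no share over all gene pairs was computed. The pair stood at nearly equal FPKM in CAC 2 and CAC 3.

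Hcar1 and Hcar2 lie close to each other on the minus strand of chromosome 5, and each has a single exon. Their longest identical coding run was 18 bases, shown in capitals with 15 bases on each side to let the similarity of the pair be judged.
Hcar1, chr5:123878910-123878957, minus strand: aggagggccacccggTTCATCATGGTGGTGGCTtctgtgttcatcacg
Hcar2, chr5:123864722-123864769, minus strand: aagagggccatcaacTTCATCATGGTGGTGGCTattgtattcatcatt
The run starts at coding base 685 in both genes, and no 25-base window of the coding sequence was shared. Reads of at least that length within the coding sequence could thus be told apart.

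**Figure D2:**
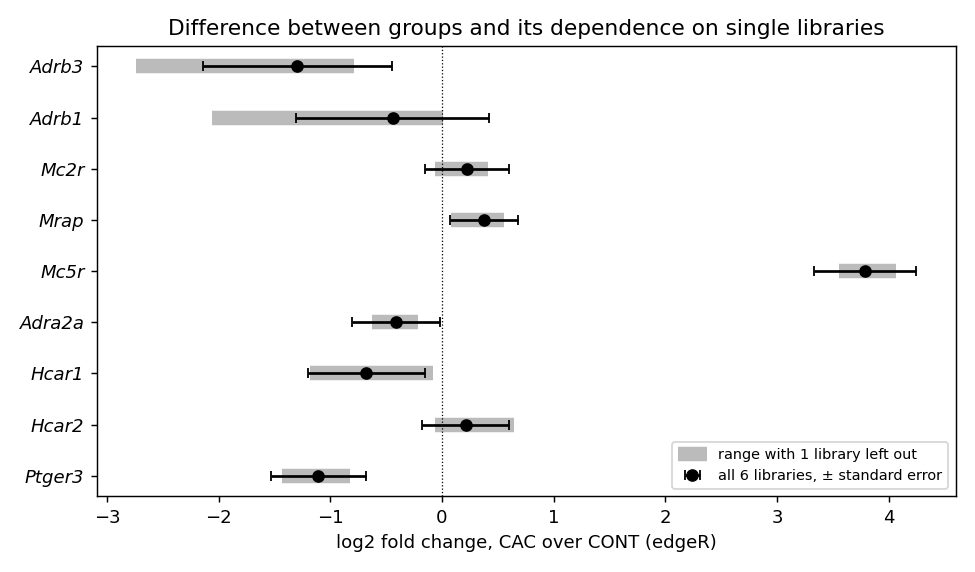
Log2 fold change of CAC over CONT for each member from edgeR, with a point and standard error for all 6 libraries and a grey band for the range with 1 library left out. The bands of Adrb3 and Adrb1 are the widest, and those of Adrb1, Mc2r and Hcar2 cross 0.

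The adipocyte gene Adipoq, which encodes adiponectin, was 1692, 1981 and 2164 CPM in CONT and 3372, 2031 and 2284 CPM in CAC. Set against it, 4 of the 9 members had groups that did not overlap, as did 23.8% of all genes tested (21.8% lower and 2.02% higher in CAC). Adrb3 was 167, 116 and 128 FPKM per 1000 FPKM of Adipoq in CONT and 73.0, 28.7 and 8.08 in CAC. On the same scale Ptger3 was 5.23, 10.4 and 7.63 in CONT and 2.13, 4.97 and 1.79 in CAC. Hcar1 was 10.4, 9.80 and 21.3 in CONT and 8.43, 4.997 and 5.89 in CAC. These 3 receptors were lower in all CAC libraries on this scale, although each overlapped in CPM. Mc5r was higher, at 0.313 to 0.372 in CONT and 1.82 to 5.26 in CAC. CAC 1 had the most Adipoq RNA, so its values are lower on this scale than in CPM, and being lower in all CAC libraries was common among all genes here.

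**Figure D3:**
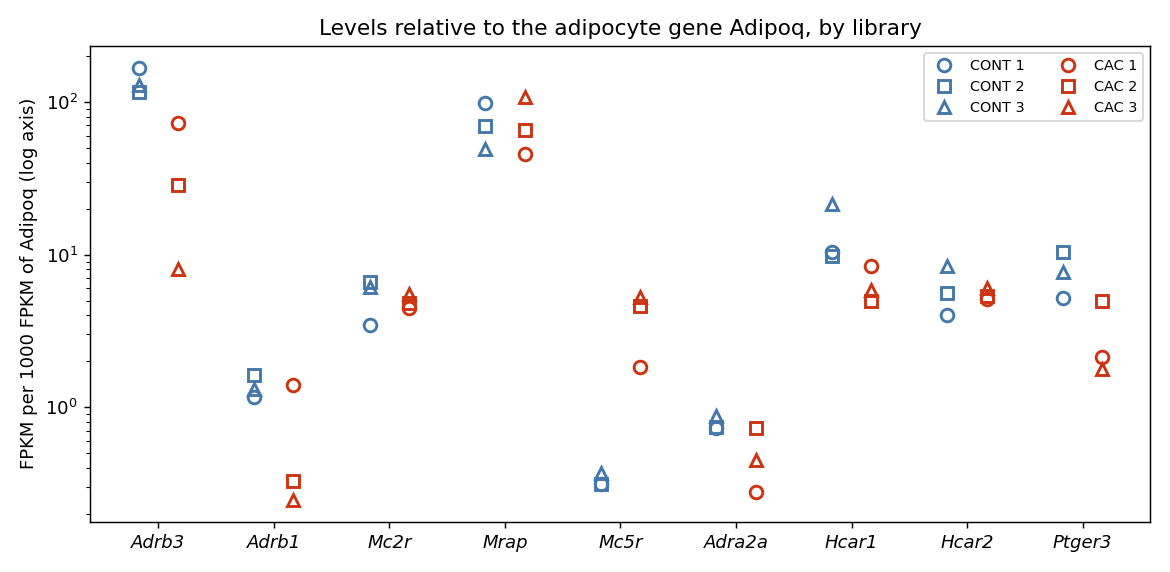
FPKM of each member per 1000 FPKM of Adipoq in each library, on a log axis, with CONT in blue and CAC in red. Adrb3, Hcar1 and Ptger3 are lower and Mc5r is higher in all 3 CAC libraries, and the other members overlap.

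The other genes of the pathway were read from 11 lists with 117 genes, of which 116 were found and 106 were tested. With edgeR 0 of them had an adjusted p under 0.05, as did 0% of all genes tested. At an unadjusted p under 0.05 there were 25 (23.6%), 15 higher and 10 lower in CAC, against 13.3% of all genes (6.31% higher and 6.95% lower). The median log2 fold change of the 106 genes was 0.01, against -0.06 over all genes. DESeq2 called 16 at an adjusted p under 0.05, 12 higher and 4 lower, against 5.62% of all genes. Of the genes named below, DESeq2 called Adra1a, Npy1r, Gcgr, Pde3a, Pde3b, Pde4d, Rgs2, Nr4a3, Abhd5 and Pnpla2 higher in CAC. It called Adcy8, Prkaca, Ddc and Ptges lower. All adjusted p-values in the next paragraphs are from the edgeR fit over all genes.

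Other adrenergic receptors had a median log2 fold change of 0.78, and 2 of 6 were higher at an unadjusted p under 0.05. Adra1a was among them, an alpha-1 receptor that signals through Gq, at 3.66 to 5.44 CPM in CONT and 8.23 to 13.9 CPM in CAC (log2 fold change 1.24, SE 0.37, adjusted p = 0.281). Among 6 other Gi-coupled antilipolytic receptors, Npy1r, a receptor of neuropeptide Y, was higher, at 2.50 to 4.70 and 7.68 to 11.6 CPM (1.37, SE 0.38, adjusted p = 0.273). Adora1, the adenosine A1 receptor, was 49.4 to 98.3 CPM in CONT and 49.7 to 115 CPM in CAC, with a log2 fold change of 0.20 (SE 0.39). The median of this list was -0.21. Of 3 other prostaglandin E2 receptors, the Gs-coupled Ptger4 was lower at an unadjusted p under 0.05 (-1.03, SE 0.32, adjusted p = 0.287).

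Of 9 tested receptors for other lipolytic hormones, 2 were higher and 3 lower at an unadjusted p under 0.05. Gcgr, the glucagon receptor, was 0.981 to 2.12 CPM in CONT and 3.79 to 12.4 CPM in CAC (log2 fold change 2.24, SE 0.62, adjusted p = 0.270). Without CAC 3 the log2 fold change of Gcgr was 1.54. The receptors of thyrotropin (Tshr, -0.63, SE 0.23, adjusted p = 0.338) and parathyroid hormone (Pth1r, -0.57, SE 0.18, adjusted p = 0.297) were lower in every CAC library. Npr3, which clears natriuretic peptides, was 332, 642 and 501 CPM in CONT and 270, 36.9 and 37.2 CPM in CAC (-2.10, SE 0.85, adjusted p = 0.368). As for Adrb3, CAC 1 was the CAC library nearest to CONT.

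Downstream of the receptors, 1 of 16 G protein and adenylyl cyclase genes passed an unadjusted p under 0.05. It was the cyclase Adcy8 (-4.19, SE 1.42, adjusted p = 0.310), whose groups overlapped because CONT 1 had 0.535 CPM against 37.3 and 34.99 in the other CONT libraries. Gnas, which encodes the Gs alpha subunit, was 55.8 to 65.8 CPM in CONT and 47.4 to 70.7 CPM in CAC. Adcy3 was 3.03 to 25.9 and 22.7 to 90.1 CPM (1.55, SE 0.83, adjusted p = 0.454), with a log2 fold change of 0.76 without CAC 3. Among 17 genes of protein kinase A and phosphodiesterases 4 were higher and 1 lower. The phosphodiesterase Pde3b, through which insulin lowers cyclic AMP, was 228, 335 and 397 CPM in CONT and 848, 502 and 691 CPM in CAC (1.09, SE 0.32, adjusted p = 0.283).

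Pde4d, another phosphodiesterase, was 1.69, 10.1 and 10.1 CPM in CONT and 17, 99.7 and 220 CPM in CAC (3.92, SE 1.06, adjusted p = 0.266). Pde3a (0.96, SE 0.27, adjusted p = 0.273) and Pde2a (1.75, SE 0.59, adjusted p = 0.305) were also higher in every CAC library, Pde2a with at most 7 reads in a CONT library. Prkaca, the catalytic subunit of protein kinase A, was 181 to 192 CPM in CONT and 97.5 to 141 CPM in CAC (-0.70, SE 0.21, adjusted p = 0.283). The median log2 fold change of this list was 0.35, and 11 of its 17 genes had a positive value. In the list of receptor desensitisation, with 10 genes, Rgs2, a regulator of G protein signalling, was 20.7 to 37.9 CPM in CONT and 84.0 to 234 CPM in CAC (2.25, SE 0.48, adjusted p = 0.228), and the beta-arrestin Arrb2 was lower (-0.60, SE 0.23, adjusted p = 0.346).

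Among 14 tested lipolytic effectors and genes induced by cyclic AMP, 4 were higher and 0 lower at an unadjusted p under 0.05, with a median of 0.48. Nr4a3, an immediate early nuclear receptor gene that beta-adrenergic stimulation induces, was 1.52, 2.63 and 2.21 CPM in CONT and 14.9, 37.5 and 95.1 CPM in CAC (4.52, SE 0.73, adjusted p = 0.197). Pnpla2, which encodes adipose triglyceride lipase, was 1718, 1312 and 1916 CPM in CONT and 4177, 3787 and 4725 CPM in CAC (1.36, SE 0.32, adjusted p = 0.238). Its activator Abhd5 (1.29, SE 0.23, adjusted p = 0.215) and the transcription factor Creb1 (0.37, SE 0.15, adjusted p = 0.366) were higher in all CAC libraries too. These 4 genes have groups that do not overlap, which the rule for naming genes asked for. That CAC 1 lay with CAC 2 and CAC 3 is therefore no contrast with Adrb3 and Adrb1. For Nr4a3, CAC 1 was the CAC library nearest to CONT. Lipe, hormone-sensitive lipase, overlapped, at 1256 to 2174 and 1031 to 1824 CPM (-0.27, SE 0.37).

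**Figure D4:**
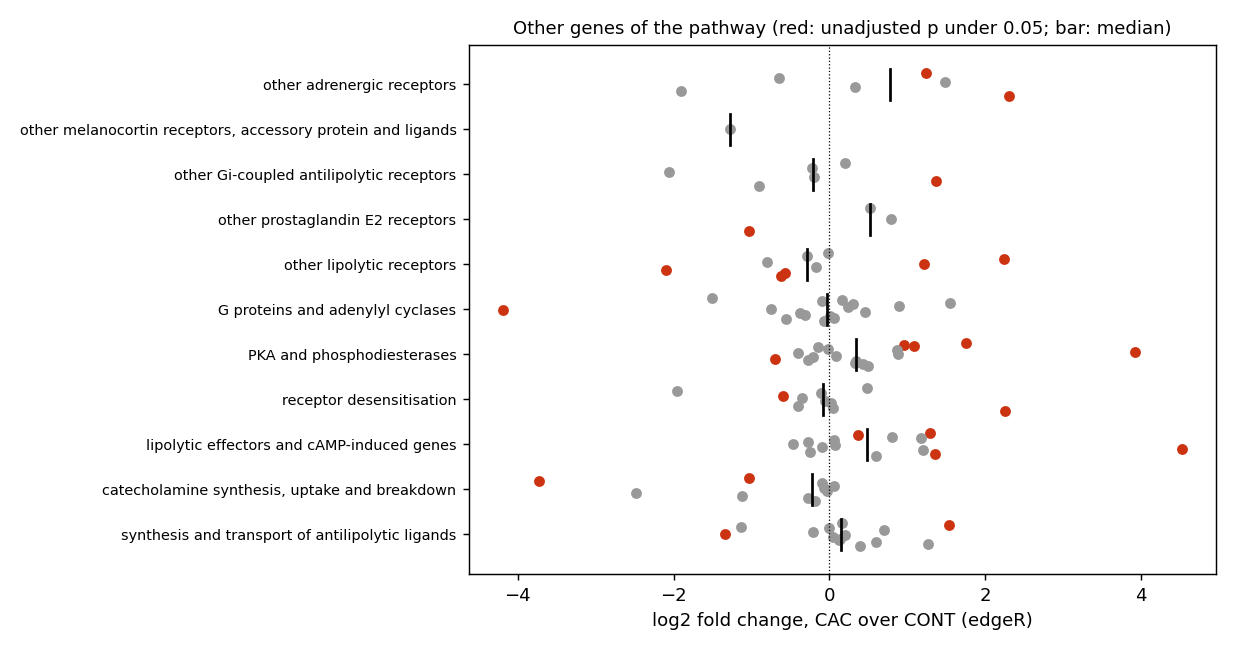
Log2 fold change of CAC over CONT from edgeR for the tested genes of each pathway list, members left out, with an unadjusted p under 0.05 in red and a bar at the list's median. Points lie on both sides of 0 in most lists, and all 4 red points of the lipolytic effectors lie to the right.

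For the ligands, the RNA of Th and Dbh, which act in catecholamine synthesis, was at or near the detection limit. Th, tyrosine hydroxylase, had 0 to 3 reads per library, and Dbh, which makes noradrenaline, had 0 to 4. Of 10 tested genes for catecholamine synthesis, uptake and breakdown 2 were lower at an unadjusted p under 0.05. Ddc, which makes dopamine, was 0.624 to 7.05 CPM in CONT and 0.0821 to 0.646 CPM in CAC (-3.72, SE 1.11, adjusted p = 0.283). Of 14 genes for the ligands of antilipolytic receptors 1 was higher and 1 lower. Ptges, which makes the Ptger3 ligand prostaglandin E2, was 77.2 to 93.5 CPM in CONT and 24.8 to 50.9 CPM in CAC (-1.34, SE 0.31, adjusted p = 0.228).

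The members did not follow one pattern over the 6 libraries. Given as a description of log2 CPM, Mc2r and Hcar2 had r = 0.90, Adra2a and Ptger3 0.80, Adrb1 and Hcar1 0.77, Adrb3 and Mc5r -0.78 and Mrap and Ptger3 -0.85. The gene most like Adrb3 among all genes tested was Tmem182 (r = 0.995), followed by Phldb1 (0.995) and Mfap5 (0.995). Those most like Adrb1 were Gtpbp2 (0.996), Cd151 (0.995) and Klhdc7a (0.991). For Adra2a they were Rab25 (0.995), Cblc (0.990) and Krt18 (0.987), and for Ptger3 C1qtnf3 (0.995), Tert (0.995) and Pigz (0.993). For Mc5r they were Gm49303, Gm31305 and Grina (each 0.994), and for Mc2r Apex1 (0.996), Traf3ip3 (0.991) and Ints14 (0.990). For Mrap they were Slc16a1 (0.996), Alg13 (0.979) and Nudt7 (0.978), for Hcar1 Syvn1 (0.985), Hk2 (0.985) and Nebl (0.982), and for Hcar2 Gpr176 (0.999) and Gm12523 (0.985). These are among the highest values of all genes tested, each rests on 6 libraries, and CONT 1 enters all of them.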

How the data were processed

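The authors cleaned the reads, aligned them with HISAT2 2.0.5 and counted them per gene with featureCounts 1.5.0-p3 (from the paper and the submitters' processing notes). The deposited counts are whole reads per gene without normalization. The authors also deposited FPKM values, which are counts divided by gene length and library total, and these were used to compare genes with each other. Coordinates are those of the deposited table (GRCm38). In R 4.3.3, counts were fitted with edgeR 4.0.16 (robust quasi-likelihood test with condition as the only term, TMM scaling, genes of low count removed by filterByExpr with group sizes, Benjamini-Hochberg adjusted p). CPM uses TMM-adjusted library sizes, and 1 CPM stood for 11.2 to 26.5 reads. Log2 CPM for correlations used a prior count of 2. Alternatives used DESeq2 1.42.0, limma 3.58.1 (voom with sample quality weights, or log2 FPKM with a pseudocount of 1 or 0.1 for genes reaching 0.5 FPKM in 3 or more libraries), other scalings, no filter, a replicate block and each library left out.

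The members and the gene lists were chosen with earlier results of these data known. Genes of the pathway lists were named where the unadjusted p was under 0.05 and the groups did not overlap (at most 6 in a list), with the gene of smallest p in each list, further genes named in any case (Adcy3, Pde3b, Gnas, Lipe, Pnpla2, Adora1) and the 3 genes most correlated with each member. Some genes that this rule names are not reported here. P-values measure the spread between these mice, 3 per group, for which an exact two-sided permutation test of a single value cannot go below 0.1. The scripts were tested on simulated counts. Coding and promoter sequence came from GENCODE M21 and RefSeq.

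Beside the adipocyte, neutrophil, epididymis and steroidogenic markers, the summed level in CONT and CAC was 482 to 1530 and 707 to 1243 CPM for macrophages, 1781 to 2280 and 1330 to 1873 for fibroblasts and progenitors, 80.9 to 178 and 56.9 to 153 for mesothelium, 1077 to 1458 and 1530 to 1604 for endothelium, 648 to 772 and 493 to 1060 for smooth muscle and pericytes, 13.3 to 39.0 and 10.1 to 24.3 for nerve and glia, and 11.7 to 15.0 and 5.25 to 10.5 for B and T cells.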

Additional observations from a re-analysis of the deposited data

How the results depend on the processing

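Of 126 recomputed log2 fold changes of the members, 122 moved by less than the spread between replicates. For Adrb1, Adrb3, Mc2r, Mrap, Hcar1 and Hcar2 that spread was larger than the log2 fold change itself. The count therefore cannot show that their differences were stable. The 4 that moved by more were Adrb1 without CAC 1 (-2.06) and with voom quality weights (-1.76), Adrb3 without CAC 1 (-2.74) and Mc5r on log2(FPKM + 1) (2.19). Among the members, Mc2r changed sign without CONT 1 (-0.058) and with voom (-0.21), Hcar2 without CONT 1 (-0.059) and with voom (-0.14), and Adrb1 without CAC 3 (0.0088). The count of genes with an adjusted p under 0.05 was 0 with edgeR under the other scalings, without the filter and with any 1 library left out, 965 with DESeq2, 953 with voom, 5 on log2(FPKM + 1) and 6 on log2(FPKM + 0.1). At an unadjusted p under 0.05 it was 4884 with voom and 1384 to 3032 with 1 library left out, 1384 without CAC 2 and 1491 without CAC 3. Pathway genes at an unadjusted p under 0.05 numbered 42 with voom and 15 to 29 with 1 library left out (15 without CAC 2, 16 without CAC 3 and 16 without CONT 2). At an adjusted p under 0.05 they numbered 16 with DESeq2 and 17 with voom. Of the named pathway genes, Adora1 reversed without CONT 1 (-0.028) and without CAC 2 (-0.00084), Gnas without the filter (0.014), without CONT 2 (0.00071) and without CAC 3 (0.066), and Lipe without CONT 1 (0.018). With 1 library left out Adora1 ranged from -0.028 to 0.50, Gnas from -0.19 to 0.066 and Lipe from -0.52 to 0.018. The cause was not tested.

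Deviations of same-numbered libraries from their group means correlated with r = 0.31, -0.15 and -0.22. Those of libraries with different numbers correlated with r between -0.44 and 0.47. With 3 libraries per group these values cannot decide whether the replicate numbers pair the mice. With the replicate block 1 gene had an adjusted p under 0.05, 1992 genes and 26 pathway genes had an unadjusted p under 0.05, and the log2 fold change was -1.22 for Adrb1 and -2.03 for Adrb3. At 5 to 15 reads per CONT library, Mc5r had the fewest reads among the members, and the level of genes with at most 3 reads could not be resolved at this depth.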

Other observations

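Some other genes of adipocyte signalling had, like Adrb3, low values in CAC 2 and CAC 3 and a value in CAC 1 at or near the CONT range. They were picked after their values were seen and are given as values only. Lep, which encodes leptin, was 697, 409 and 414 CPM in CONT and 512, 3.996 and 0.415 CPM in CAC. Sucnr1, the Gi-coupled succinate receptor, was 62.2, 33.8 and 34.9 CPM in CONT and 52.8, 10.1 and 6.80 CPM in CAC. Mgll, which encodes monoglyceride lipase, was 1611, 988 and 1002 CPM in CONT and 1362, 618 and 620 CPM in CAC. Hpgd, which breaks down prostaglandin E2, was 105, 47.8 and 45.8 CPM in CONT and 68.7, 16.2 and 5.32 CPM in CAC.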
